A study of Mus musculus with 24 samples.

Results

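The urea cycle and periportal nitrogen genes described here are 9 mouse genes: Cps1, Otc, Ass1, Asl, Nags, Gls2, Hal, Slc25a15 and Slc25a13. They were taken by symbol from the deposited gene counts, where all 9 were found among 24411 genes. The rule itself names symbols and sets no limit on a measured value, but the genes were picked with earlier results of these data known. Of the 9, 8 had enough reads to be tested, and the remaining one, Ass1, had 0 to 4 counts in every library.

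The urea cycle turns ammonia and the nitrogen of amino acids into urea, mostly in the hepatocytes around the portal vein. Carbamoyl phosphate is made in the mitochondria and passed to ornithine, citrulline leaves for the cytosol, and arginine is finally split into urea and ornithine, which returns to the mitochondria. Ammonia that escapes this route is taken up around the central vein and bound as glutamine, and it is the cells around the central vein that acetaminophen (APAP) injures first.

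Bulk RNA-seq was performed on 24 libraries of whole liver from male mice aged 2.5 months. The mice were fasted for about 16 h before APAP, or before collection at 0 h. LKO mice carried floxed E2f7 and E2f8 alleles, the R26R mTmG reporter and an Alb-Cre transgene, which is driven by the albumin promoter and acts in the liver throughout life. Their controls, labelled WT, were littermates that had the floxed alleles but no Cre, on a mixed and mostly FVB background. In LKO livers most hepatocytes stay diploid, whereas control livers are mainly polyploid. HKO mice were floxed animals given AAV8-TBG-Cre at 2 months of age, so that the hepatocyte-specific TBG promoter drove Cre in adult livers of normal ploidy, and their controls received the AAV8-TBG-Null virus. At 0 h, before APAP, each library was 1 mouse, with 4 LKO mice and 4 controls in one cohort and 3 HKO mice and 3 controls in the other. The LKO cohort was also followed after a dose of 300 mg/kg APAP, with 1 library per genotype, pooled from 3 mice, at 12, 24, 48, 72 and 96 h. The pools are therefore averages over animals, the spread between treated animals was not measured, and HKO mice were not sequenced after APAP.

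The libraries held 12665686 to 19499897 reads assigned to genes, so that 3 counts corresponded to 0.141 to 0.260 CPM, the count scaled by library size. Hepatocyte markers (Alb, Ttr, Apoa1 and others, 11 measured) took 6.73% to 15.9% of the assigned reads in each library. E2f7 was at or below 4.33 CPM everywhere. E2f8 counts were not lower in the knockouts: 30.7 to 83.9 CPM in the 3 libraries labelled HKO against 15.2 to 26.4 CPM in their controls, and 17.7 to 34.2 CPM in the 4 libraries labelled LKO at 0 h against 11.6 to 18.7 CPM, and neither difference was called (edgeR adjusted p = 0.0773 and 0.999). The deposited counts sum all exons of a gene, deleted or retained, so they do not check the deletion, and the groups are named throughout as the labels name them. The study assessed recombination in HKO livers by the reporter and by reads in single exons of E2f8, which were not analysed here. It reported recombination in nearly all HKO hepatocytes and fewer E2f8 reads in those exons than in controls. Of the time after APAP, the state of feeding and the hour of the day at collection, only the first was given for the pools, and the 3 cannot be told apart.

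In the fasted control livers of the LKO cohort the measured members spanned a wide range of levels. Levels were compared between genes per kilobase of merged exons (CPM per kb; mean ± SD, n = 4). Cps1, carbamoyl phosphate synthetase, which binds ammonia at the entry of the cycle, was highest at 908 ± 133 CPM per kb. Asl, the argininosuccinate lyase that releases arginine, followed at 162 ± 33.3 CPM per kb, and the 4 mice did not overlap between these genes. Gls2, the liver glutaminase that frees ammonia from glutamine, and Otc, the ornithine transcarbamylase that makes citrulline, were both at 109 CPM per kb (SD 14.3 and 14.1). Slc25a15, the mitochondrial ornithine carrier, was at 75.8 ± 13.5 CPM per kb and Slc25a13, the aspartate/glutamate carrier citrin, at 74.3 ± 2.38 CPM per kb. Hal, the histidine ammonia lyase of histidine breakdown, was at 48.2 ± 16.8 CPM per kb. Nags, which makes the N-acetylglutamate that Cps1 needs as activator, was lowest at 25.9 ± 1.33 CPM per kb. From Asl down to Hal each neighbouring pair in this order overlapped between mice, while Nags lay below the other 7 measured members, Ass1 being left out of this order.

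The count of Ass1, argininosuccinate synthetase, is unlike that of the other members. It was 0 in 15 of the 24 libraries and its highest level was 0.265 CPM, although the enzyme is needed for the cycle and abundant in liver. Ass1 lies on chromosome 2 (chr2:31470207-31520672, plus strand, GRCm38), and a processed copy of its coding sequence, the pseudogene Gm5424, lies on chromosome 10 (chr10:62071123-62072362, plus strand). Over the 1239 aligned coding bases the gene and the copy were 99.52% identical, with 6 differences: T399C, T429C, A520T, G656C, T1011C and C1143T, counted from the first base of the Ass1 reading frame, with the Ass1 base first. The bases 385 to 444 of the reading frame are shown for both because they hold the first 2 differences, in capitals:
Ass1: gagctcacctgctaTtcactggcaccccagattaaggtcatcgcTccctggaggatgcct
Gm5424: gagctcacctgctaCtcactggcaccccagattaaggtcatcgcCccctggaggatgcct
A read confined to the lower-case letters between or beside these bases fits both places, and the authors' counting kept only reads placed at a single position. Of the 75-base windows of the Ass1 transcript, 46.9% were found without change in Gm5424, and of the 150-base windows 29.3%. At 75 bases the remaining windows were found at no other gene, and Gm5424 itself had 0 counts in all libraries. What removed the reads of Ass1 was not tested, and its values are read here neither as absence of the transcript nor as a change. Among the other members no processed copy was found at 75 bases, but 443 exonic bases of Nags are shared with the antisense gene Gm11586, whose reads cannot be told apart in unstranded counts. For Gls2, 97 exonic bases are shared with Spryd4 on the opposite strand, and reads that overlap both are set aside as ambiguous by the counting.

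After APAP, the question was how the cycle's transcripts moved in the injured and recovering liver. Times were compared with 0 h over both genotypes together (2 pools against 8 mice, with genotype as a term), using edgeR's quasi-likelihood test with Benjamini-Hochberg adjustment over all genes, and called genes had to pass both 0.05 on the adjusted p and a limit of 1.5-fold. The spread in this fit came from the 0 h mice and from genotype differences that vary with time. Pools were treated as if they varied like single mice, so SE and p do not measure the spread between treated animals. At 12 h Asl was higher and Otc lower, and at 24 h 5 of 8 members were lower. From 48 h on no member was called against 0 h.

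**Figure D1:**
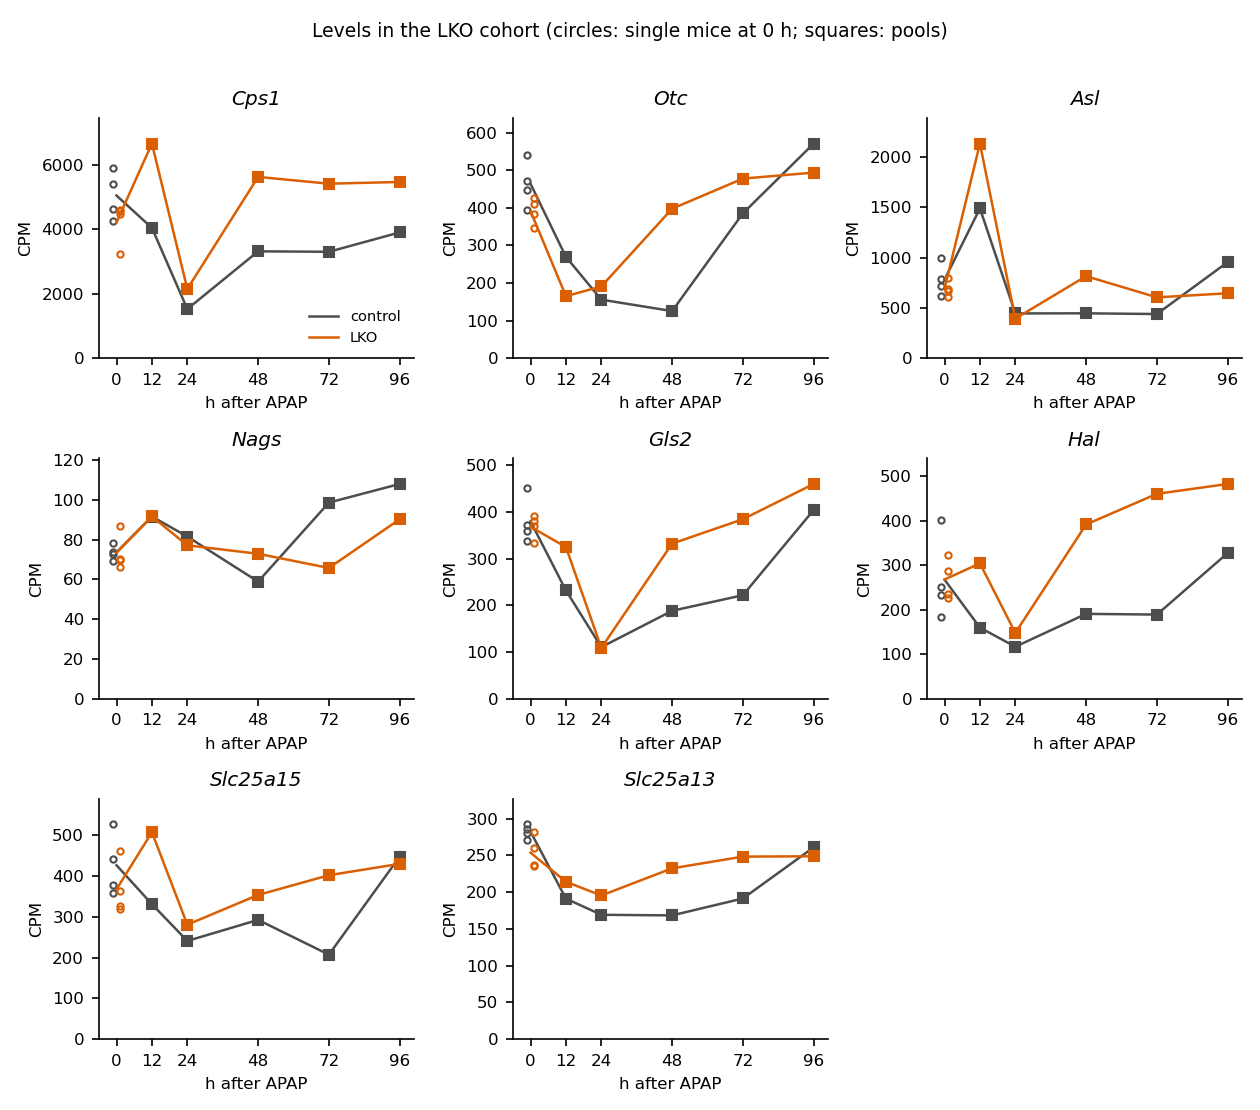
CPM (linear axis from 0) of the 8 measured members against hours after APAP in the LKO cohort, with open circles for single mice at 0 h, squares for pools of 3 mice, and lines through the 0 h mean and the pools (grey control, orange LKO). Asl peaks at 12 h in both genotypes, Cps1, Gls2 and Hal have their lowest value at 24 h in both, and Otc is lowest at 48 h in control and at 12 h in LKO livers.

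At 12 h, 2 of 8 members were called, 1 higher and 1 lower, where 31% of the 13855 genes tested were called (16.7% higher and 14.3% lower). The share of members called was thus no higher than that of all genes. Asl was at 608 to 998 CPM in the 8 mice at 0 h and at 1490 CPM (control) and 2134 CPM (LKO) at 12 h. It rose 2.47-fold (log2 fold change 1.30 ± 0.23 SE, edgeR adjusted p = 0.000477). Each pool lay above all 8 mice, as it did for Nags, and this held for 18% of all genes.

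Otc moved the other way at this time. It was at 347 to 540 CPM at 0 h, and at 270 CPM in the control and 165 CPM in the LKO pool at 12 h. It fell 1.95-fold (log2 fold change -0.97 ± 0.32 SE, edgeR adjusted p = 0.0262). With control libraries alone, where 1 pool stood against 4 mice and its own spread was not measured, Otc was not called (log2 fold change -0.78). The call was kept under 17 of 18 alternatives. The called members thus had no common direction at 12 h. Cps1 was at 4041 CPM in the control pool, within the 3245 to 5900 CPM of the 8 mice, and at 6656 CPM in the LKO pool, above them. Both pools of Nags (91.6 and 91.7 CPM) were just above the 66.5 to 87.1 CPM of the mice, and both pools of Otc, Gls2 and Slc25a13 were below all mice, which held for 17.3% of all genes. Cps1, Nags, Gls2 and Slc25a13 were not called at 12 h.

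At 24 h, 5 of 8 members were called and all 5 were lower, where 25.6% of all genes were called, 13.9% higher and 11.7% lower. The median log2 fold change of the 8 members was -0.93, against 0.00 over all genes tested. Both pools lay below all 8 mice for 7 of 8 members, and for 17.5% of all genes, and above them for 0 members and 19.4% of all genes. The exception was Nags, whose pools (81.5 and 77.1 CPM) were within the range of the mice.

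Gls2, the glutaminase, had the largest change. It was at 334 to 452 CPM at 0 h and at 111 CPM (control) and 109 CPM (LKO) at 24 h, and it fell 3.42-fold (log2 fold change -1.77 ± 0.23 SE, edgeR adjusted p = 7.77e-05). Cps1 was at 1526 CPM in the control and 2150 CPM in the LKO pool and fell 2.58-fold (log2 fold change -1.36 ± 0.28 SE, edgeR adjusted p = 0.00230). Otc was at 156 and 191 CPM and fell 2.47-fold (log2 fold change -1.31 ± 0.33 SE, edgeR adjusted p = 0.00711). For these 3 genes both genotypes were below all 8 mice.

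Hal was at 117 CPM (control) and 148 CPM (LKO), below the 185 to 401 CPM of the mice, and fell 2.06-fold (edgeR adjusted p = 0.0207). Asl was at 446 and 394 CPM, so that Asl, whose own peak was at 12 h, was below all mice at 24 h, and it fell 1.75-fold from 0 h (edgeR adjusted p = 0.0287). The carriers had smaller differences that were not called: Slc25a13 had a log2 fold change of -0.56 ± 0.17 SE with an edgeR adjusted p of 0.0195, which is under the 1.5-fold limit, and Slc25a15 one of -0.62 ± 0.25 SE with an adjusted p of 0.0729. Fitted within 1 genotype, where a single pool stood against 4 mice and was assumed to vary like them, Cps1, Otc and Gls2 passed at 24 h in control livers and Otc and Gls2 in LKO livers, while Asl and Hal passed in neither. These fits called 1748 of 14023 and 1062 of 13997 genes.

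Since Asl had moved up first, 24 h was also set against 12 h, a comparison added after these values were seen. Of 8 members, 3 were lower at 24 h, where 16.7% of all genes were called, 8.5% lower and 8.24% higher. On the log2 scale Asl fell by 2.11 between these times, Cps1 fell by 1.54 and Gls2 fell by 1.33 (edgeR adjusted p = 0.00165, 0.00684 and 0.00395). Each comparison rests on 2 pools a time.

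**Figure D2:**
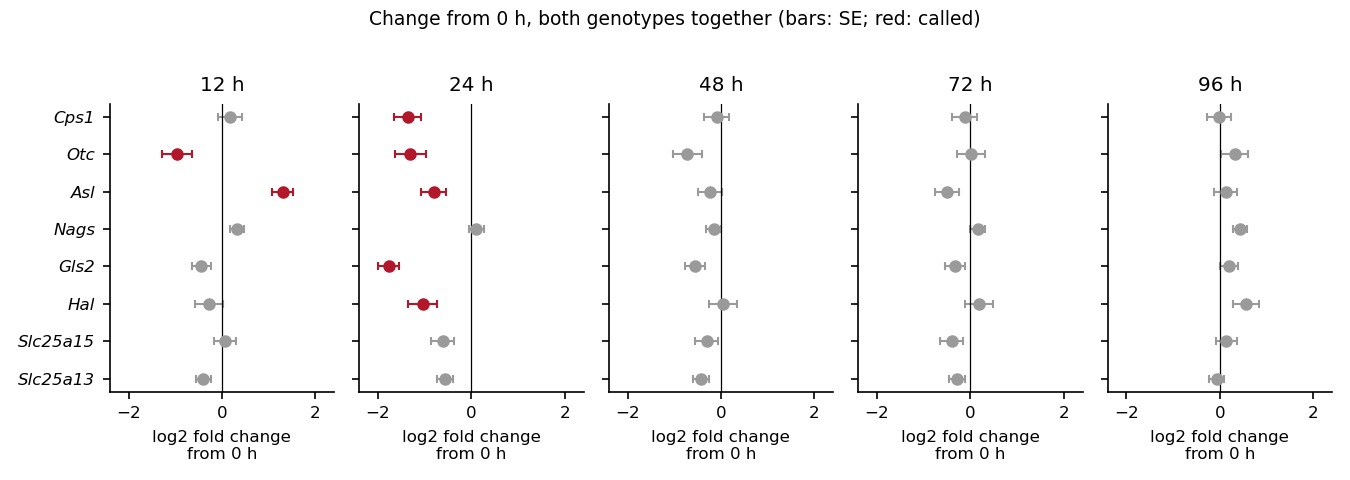
log2 fold change from 0 h (horizontal axis, linear) of the 8 measured members at each time after APAP, both genotypes together, with bars of 1 SE and called members in red. Red points are Otc and Asl at 12 h and Cps1, Otc, Asl, Gls2 and Hal at 24 h, and all points are grey from 48 h on.

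At 48, 72 and 96 h, 0 of 8 members were called by edgeR, where 16.4% (9.89% higher, 6.52% lower), 16.8% (11% higher, 5.77% lower) and 0.462% (0.332% higher, 0.13% lower) of all genes were called. At an unadjusted p under 0.05 there were 3 members at 48 h (Otc, Gls2 and Slc25a13, all lower), 0 at 72 h and 1 at 96 h (Nags, higher). Beside them, 4524, 4473 and 2140 of 13855 genes passed that limit at 48, 72 and 96 h. DESeq2 called 0 members at each of the 3 times. Over the alternatives, DESeq2 among them, 280 to 2697, 375 to 2924 and 10 to 338 genes were called at these times. At 48 h, 6 of 8 members in the control pool were below all 8 mice, against 24.8% of 14501 genes in that pool, and 2 of 8 in the LKO pool, against 20% of genes. With 1 pool a side this difference between genotypes was not tested. Otc was at 125 CPM in the control pool, its lowest value of all libraries, and at 398 CPM in the LKO pool. Over both genotypes its log2 fold change at 48 h was -0.72 ± 0.32 SE (edgeR adjusted p = 0.124). In fits of 1 genotype, where 1 pool stood against 4 mice and its own spread was not measured, the log2 fold change was -1.88 in control livers (edgeR adjusted p = 0.00550) and 0.03 in LKO livers (0.953), which are the ends of the range over the alternatives. For Gls2 these values were -1.01 (0.0422) and -0.14 (0.795). The difference between these fits was not tested. Both pools were below all mice for Gls2 and Slc25a13 at 48 h (11.3% of all genes), for Asl at 72 h (12.6%) and for 0 members at 96 h (7.43%). Both were above them for 0 members at 48 and 72 h (13% and 15% of all genes) and for Nags at 96 h (6.96%).

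The rest of nitrogen handling was followed with lists of related genes. Of 32 tested genes of amino acid breakdown, 25 were called lower and 0 higher at 24 h, with a median log2 fold change of -0.93, where 11.7% and 13.9% of all genes were called. At 12 h these counts were 14 lower and 3 higher, at 48 h 11 and 0, and at 72 h 1 and 0. Uroc1, the urocanase that follows Hal in histidine breakdown, fell 2.29-fold at 24 h (edgeR adjusted p = 0.000414). The amino acid genes thus had their largest count of lower calls at the time when most members were low.

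Of 18 tested genes of ammonia and nitrogen transport, 1 was called higher and 9 lower at 24 h, beside 13.9% and 11.7% of all genes. Car5a, the mitochondrial carbonic anhydrase that supplies bicarbonate to Cps1, was at 47.4 to 73.9 CPM in the 8 mice and at 14.3 CPM (control) and 25.04 CPM (LKO) at 24 h, and fell by 1.63 on the log2 scale (edgeR adjusted p = 0.000294). Several pericentral genes bind or carry ammonia and glutamate. Of 16 pericentral markers, 2 were called higher and 9 lower at 12 h, 1 and 12 at 24 h, 0 and 12 at 48 h, 1 and 4 at 72 h, and 1 and 1 at 96 h, and of 12 periportal markers outside the cycle 1 and 5, 1 and 8, 1 and 4, 1 and 4, and 0 and 0. Over all genes 16.7%, 13.9%, 9.89%, 11% and 0.332% were called higher and 14.3%, 11.7%, 6.52%, 5.77% and 0.13% lower at these times. Glul, glutamine synthetase, was at 415 to 573 CPM in the mice and at 156 CPM (control) and 66.8 CPM (LKO) at 48 h. It fell by 2.15 on the log2 scale (edgeR adjusted p = 0.000265), and it was still called lower at 72 h. Slc1a2, a glutamate transporter, was at 93.9 to 139 CPM in the mice and at 0 CPM (control) and 1.65 CPM (LKO) at 24 h, and Rhbg, an ammonia channel, was among the largest decreases at 12, 24 and 48 h. Oat, ornithine aminotransferase, fell by 2.16 on the log2 scale at 48 h (edgeR adjusted p = 0.00108). Whether these genes differed from the urea cycle members in the time of their change was not tested.

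A few related genes moved up. Psat1, the phosphoserine aminotransferase of serine synthesis, was at 0.329 to 0.952 CPM in the 8 mice, at 28.4 and 18.6 CPM in the pools at 12 h, and at 26.7 and 30.2 CPM at 24 h (log2 fold changes 5.35 and 5.68, edgeR adjusted p = 4.08e-08 and 4.76e-08). Sdsl, a serine dehydratase-like enzyme, was higher at 12 h by 1.79 on the log2 scale. Slc3a2, the heavy chain of several amino acid transporters, was higher at 24 h by 1.11 on the log2 scale (edgeR adjusted p = 0.00337). Got1 and Glud1, which supply aspartate and free ammonia from glutamate, were not called against 0 h at any time, and Got1 was called lower at 24 h than at 12 h (log2 fold change -1.49, edgeR adjusted p = 0.0498).

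Among 16 listed regulators of urea cycle genes, 1 was called higher and 5 lower at 24 h, where 13.9% and 11.7% of all genes were. The higher one was Atf4, a factor of the amino acid response, and the lower ones were Cebpa, Gcgr, Hnf4a, Klf15 and Ppargc1a. Hnf4a, a hepatocyte transcription factor, had log2 fold changes of -0.67, -0.88 and -0.83 at 24, 48 and 72 h (edgeR adjusted p = 0.0407, 0.0181 and 0.0218). Cebpa, which is known to drive urea cycle genes, fell by 1.38 on the log2 scale at 48 h (edgeR adjusted p = 0.000225). Of the 16 regulators, 5 were called lower at 48 h (Cebpa, Foxa1, Gcgr, Hnf4a and Klf15) and 5 at 72 h (Foxa1, Foxo1, Gcgr, Hnf4a and Klf15), where 6.52% and 5.77% of all genes were called lower.

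Markers of other cell types were followed at the same times. At 24 h, 13.9% of all genes were called higher and 11.7% lower. In bulk tissue, fewer cells of a type and less RNA per cell cannot be told apart. Of 12 macrophage and neutrophil markers, 7 were called higher and 3 lower at 24 h, and their summed level went from 136 to 331 CPM at 0 h to 148 and 177 CPM at 24 h and 643 and 618 CPM at 72 h. Of 11 hepatocyte markers, 2 (Apoa1 and Fgb) were called higher and 1 (Serpinc1) lower at 24 h, with summed levels of 129713 and 103698 CPM against 63588 to 135731 CPM at 0 h. These sums were within those of the 0 h mice, although as a share of assigned reads, without TMM scaling, the control pool at 24 h (13.7%) was above the 6.73% to 12.6% of the mice and the LKO pool (11.4%) within it. Periportal markers outside the cycle (12 genes) summed to 3528 and 4060 CPM against 9531 to 13907 CPM. Summed levels of endothelial markers were 159 and 156 CPM at 24 h against 196 to 255 CPM, of stellate markers 248 and 262 CPM against 131 to 245 CPM, and of cholangiocyte markers 55.5 and 50.5 CPM against 37.5 to 77.3 CPM. Of the red cell markers 4 of 5 were at 0 in all groups. At 24 h the macrophage, hepatocyte and cholangiocyte sums were thus within those of the mice, the endothelial and periportal sums below them and the stellate sums above. The part of these markers in the members' changes was not tested.

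Markers of the metabolic state were counted beside the 31% (12 h) and 25.6% (24 h) of all genes called. Of 8 fasting genes, 5 were called higher and 1 lower at 12 h, the time of the Asl peak, and 1 higher and 1 lower at 24 h. Of 8 feeding genes, 1 was called higher and 2 lower at 12 h, and 0 and 2 at 24 h. Of 14 clock genes, 3 were higher and 5 lower at 12 h, and 1 and 6 at 24 h. Their part in the members' changes was not tested.

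The second question was whether the cycle differed between LKO and control livers. At 0 h, 0 of 8 members were called, and 0% of 12426 genes were called (352 genes had an unadjusted p under 0.05, and DESeq2 called 0 members). The log2 fold changes ran from -0.25 ± 0.17 SE (Cps1) to 0.01 ± 0.23 SE (Hal), each with an edgeR adjusted p of 0.999. The control mice had 4264 to 5900 CPM of Cps1 and the LKO mice 3245 to 4585 CPM. For all 8 members the genotypes overlapped, and all LKO mice lay below all controls for 0.604% of genes and above them for 1.25%. Of the 8, 6 were on the lower side, against 50.3% of all genes, but scaled to the hepatocyte markers all 8 were on the higher side. That scaling moved the median of all genes to 0.28 on the log2 scale as well.

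After APAP, 0 of 8 members were called between the 5 LKO and the 5 control pools, with time as a block, where 0.579% of 12782 genes were called by edgeR (0.25% higher, 0.329% lower). At an unadjusted p under 0.05 there were 3 members, Cps1, Gls2 and Hal, beside 2284 genes. DESeq2 called 2 members, Cps1 and Hal, and 606 genes. The SE of the edgeR difference rests on how that difference varied over the 5 times. It does not measure the spread between animals. Every pool of Cps1 from LKO livers exceeded its control: 6656 against 4041 CPM, 2150 against 1526 CPM, 5622 against 3315 CPM, 5412 against 3301 CPM and 5465 against 3902 CPM in order of time. The shared log2 difference was 0.62 ± 0.16 SE (edgeR adjusted p = 0.105; 0.00345 to 0.764 over the alternatives). The same held for Hal, at 304 against 160 CPM, 148 against 117 CPM, 392 against 191 CPM, 461 against 189 CPM and 483 against 327 CPM in order of time. Its shared log2 difference was 0.82 ± 0.18 SE (edgeR adjusted p = 0.0697; 0.000946 to 0.764 over the alternatives).

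Thus 2 of 8 members, Cps1 and Hal, had this order at every time, against 8.68% of 12782 genes. The opposite order at every time was seen for 0 members and 8.49% of genes. Counted by time, the LKO pool was the higher one for 7 of 8 members at 12 h, for 5 members at 24 h, for 8 at 48 h, for 7 at 72 h and for 3 at 96 h. The median difference over the members was 0.79 on the log2 scale at 48 h and -0.06 at 96 h. Over all 14501 genes the median was -0.023 to 0.019 across the 5 times. By at least 1.5-fold, 3 members were higher and 1 lower in the LKO pool at 12 h (19.8% and 24% of all genes). At 48 h 5 members were higher (17.8%), at 72 h 4 (15.9%), and at 24 and 96 h 0 (10% and 15.8%). Lower by this much were 0 members at 24, 48, 72 and 96 h (12.2%, 20.7%, 16.8% and 13% of all genes). Each of these counts rests on 1 pool a side. The Otc difference changed sign with time, from -0.71 at 12 h to 1.66 at 48 h.

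**Figure D3:**
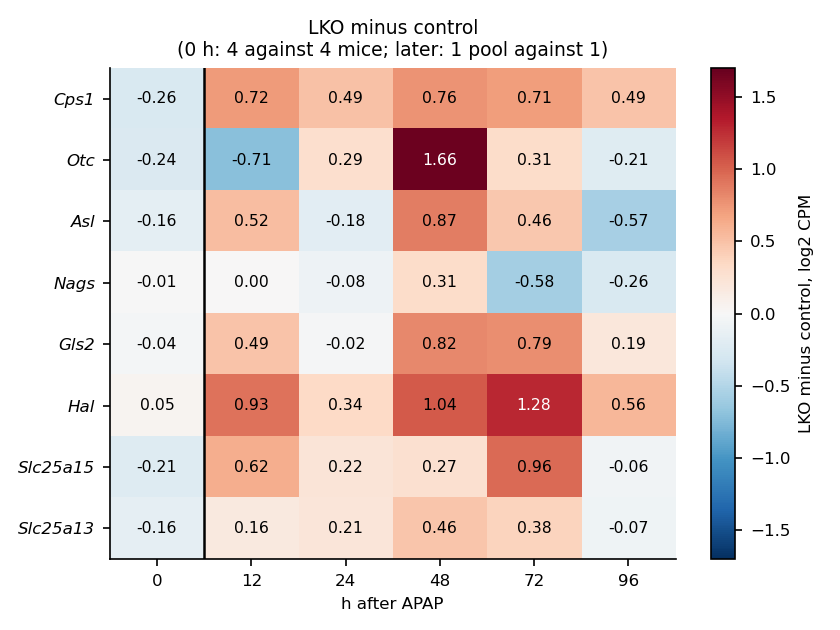
Difference of log2 CPM, LKO minus control, for the 8 measured members (rows) at each time (columns; hours after APAP), printed in each cell and coloured from blue (LKO lower) to red (LKO higher). The column at 0 h compares means of 4 mice and each later column 1 pool with 1 pool. The 48 h column is above 0 for all 8 members, and the Cps1 and Hal rows are above 0 at all 5 times after APAP.

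Whether the difference after APAP was unlike that at 0 h was tested in the 18 libraries of the cohort. Of the members, 0 of 8 were called and 0% of 13855 genes were (1307 genes, among them 5 members, had an unadjusted p under 0.05). DESeq2 called 1 member, Cps1. Over the alternatives, DESeq2 among them, 0 to 39 genes were called. The change in the LKO difference was 0.89 ± 0.22 SE on the log2 scale for Cps1 (edgeR adjusted p = 0.377; 0.0131 to 1 over the alternatives) and 0.83 ± 0.30 SE for Hal (edgeR adjusted p = 0.465). Between the early (12 to 48 h) and the late times (72 and 96 h) 0 of 8 members were called for a change in the LKO difference by edgeR, where 0.144% of all genes were called (0.0144% higher, 0.13% lower), and 1 of 8 (Nags) had an unadjusted p under 0.05, beside 1604 genes. DESeq2 also called 0 members there, and over the alternatives 0 to 188 genes were called. Other genes differed between the same pools: of 8 feeding genes Acacb and Fasn were called higher in LKO livers, G6pc was the only called gene of 12 periportal markers, and E2f8 was higher by 1.53 on the log2 scale. The feeding genes summed, in order of time, to 1420, 831, 2263, 3083 and 11662 CPM in the LKO pools and to 2086, 1011, 905, 1559 and 5970 CPM in the control pools, so that LKO was lower at 12 and 24 h and higher later. The pericentral markers summed to 5546, 5097, 5084, 10712 and 12788 CPM in the LKO pools and to 6293, 2312, 1175, 6085 and 14763 CPM in the control pools, with LKO lower at 12 and 96 h and higher between. Of the markers of other cell types, those of cholangiocytes had a median log2 difference of -1.01 (0 of 5 called), with summed levels of 36.0 against 172 CPM at 12 h, 50.5 against 55.5 CPM at 24 h, 86.5 against 216 CPM at 48 h, 43.4 against 68.4 CPM at 72 h and 21.4 against 21.6 CPM at 96 h. The hepatocyte markers had a median of -0.23 (0 of 11 called) and a lower sum in the LKO pool at all times but 48 h, for example 83192 against 125530 CPM at 12 h. The part of feeding and of these cell types in the members' values was not tested.

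In the HKO cohort, Cre given to adults offered a comparison at normal ploidy, and all 8 members were on the lower side in the livers labelled HKO at 0 h, against 47.9% of all genes. None was called, where 0.96% of 12397 genes were called by edgeR (0.419% higher, 0.54% lower). At an unadjusted p under 0.05 there were 5 members, beside 1598 genes. DESeq2 called 1 member, Asl, and 331 of 12395 genes. All 3 HKO mice were below all 3 controls for 5 of 8 members (Cps1, Otc, Asl, Gls2 and Slc25a13), against 10.1% of all genes, and above them for 0 members and 7.93% of genes. The median log2 fold change was -0.38 over the members and 0.01 over all genes. Some related lists were on the same side without overlap. In the HKO mice the periportal markers outside the cycle summed to 9389 to 10836 CPM against 12642 to 14139 CPM in the controls (median log2 fold change -0.31). Amino acid breakdown summed to 13303 to 14772 CPM against 15176 to 19090 CPM (-0.21). Ammonia and nitrogen transport summed to 6109 to 7311 CPM against 7652 to 9480 CPM (-0.23). Transaminases and aspartate supply overlapped, at 6671 to 8981 CPM against 8863 to 13520 CPM (-0.16). Regulators of urea cycle genes also overlapped, at 2580 to 3654 CPM against 2899 to 3420 CPM (-0.04). The hepatocyte markers overlapped, at 85504 to 114067 CPM against 95940 to 103547 CPM.

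Asl had the largest difference. The controls were at 2217, 1702 and 1737 CPM and the HKO mice at 1527, 1111 and 935 CPM, a log2 fold change of -0.65 ± 0.18 SE (edgeR adjusted p = 0.158; 0.0139 to 0.484 over the alternatives). It was called without the first HKO mouse (log2 fold change -0.87, edgeR adjusted p = 0.0189). Otc was at 394, 407 and 402 CPM in the controls and at 265, 296 and 332 CPM in the HKO mice (log2 fold change -0.41 ± 0.11 SE, edgeR adjusted p = 0.123). Cps1 was at 7063, 7133 and 6045 CPM in the controls and at 5500, 4779 and 5059 CPM in the HKO mice (log2 fold change -0.39 ± 0.13 SE, edgeR adjusted p = 0.224). For these 3 genes the groups did not overlap, but the differences did not pass the adjusted threshold.

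The members whose groups overlapped were Nags, Hal and Slc25a15. Of these Nags was at 85.4, 74.2 and 71.5 CPM in the controls and at 91.4, 54.7 and 59.4 CPM in the HKO mice, with the highest value of the 6 in an HKO mouse. In the same comparison 7 of 14 clock genes were called. Arntl was higher, and Dbp, Nr1d2, Per2, Per3, Tef and Usp2 were lower in the HKO mice: Dbp, for example, was at 6.21 to 25.1 CPM against 76.9 to 105 CPM in the controls. The hour of collection was not given for either group, and its part in the members' differences was not tested. Cbs, which starts the transsulfuration of homocysteine, was the only called gene of the nitrogen lists, higher by 0.77 on the log2 scale (edgeR adjusted p = 0.0202).

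**Figure D4:**
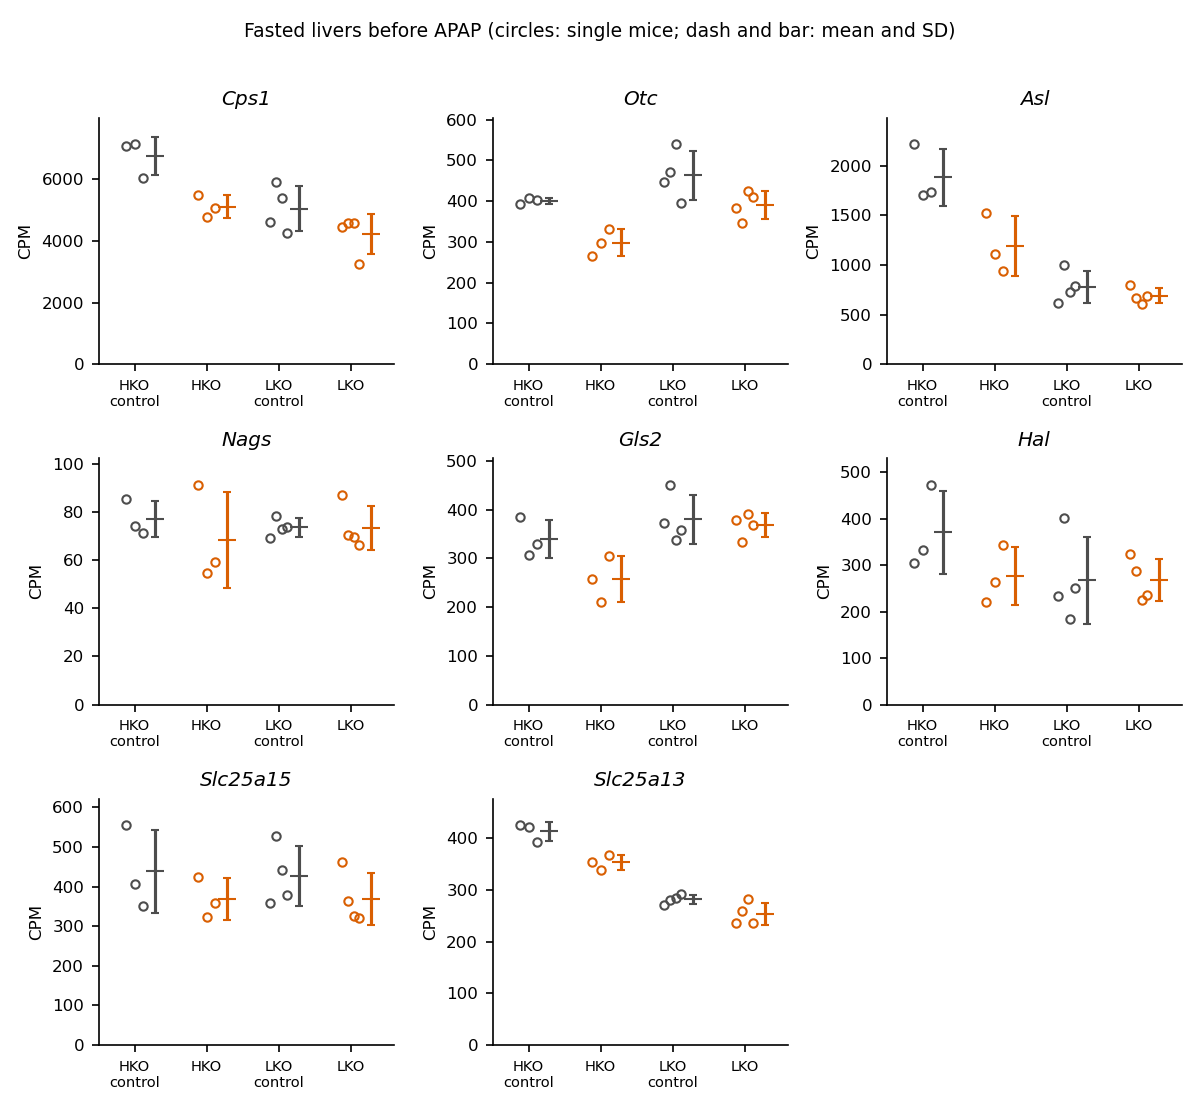
CPM (linear axis from 0) of the 8 measured members in fasted livers before APAP, with an open circle for each mouse and a dash with a bar for the mean and SD of the group (3, 3, 4 and 4 mice). HKO mice lie below their controls without overlap for Cps1, Otc, Asl, Gls2 and Slc25a13, and the LKO cohort shows overlap for all 8.

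The 2 knockouts were compared directly at 0 h. The LKO difference minus the HKO difference was above 0 for all 8 members, from 0.03 (Slc25a15) to 0.47 ± 0.27 SE (Asl) on the log2 scale. None was called (each edgeR adjusted p = 1.00), and 0% of 12945 genes were called, with 579 at an unadjusted p under 0.05. DESeq2 called 0 members, and over the alternatives 0 to 21 genes were called. Irrespective of genotype, Slc25a13 was higher in all 6 mice of the HKO cohort (339 to 426 CPM) than in all 8 of the LKO cohort (236 to 292 CPM), and it was the only member of the 8 with this pattern, against 4.77% of all genes. The reverse was seen for 0 members and 4.31% of genes. In controls alone, Asl was at 1702 to 2217 CPM in the HKO cohort and 615 to 998 CPM in the LKO cohort. Cps1 was at 6045 to 7133 against 4264 to 5900 CPM, while Otc, Nags, Gls2, Hal and Slc25a15 overlapped between these controls. The fasting genes summed to 13563 to 17899 CPM in the HKO cohort and 8307 to 10860 CPM in the LKO cohort. Virus, background and cohort cannot be told apart in these contrasts, and the part of the fasting genes was not tested.

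Across the 24 libraries most members varied in the same sense. Of the 28 pairs of members, 25 had a correlation of log2 CPM above 0, with a median r of 0.51. The pairs with the highest r were Otc with Gls2 (0.77), Cps1 with Gls2 (0.75) and Gls2 with Hal (0.75), and the lowest was Nags with Slc25a13 (-0.19). Among the 14 mice at 0 h the median r was 0.28 and among the 10 pools 0.66. In those mice Otc with Gls2 was at 0.73, Gls2 with Hal at 0.16 and Cps1 with Gls2 at -0.06. The highest r there was 0.87, for Asl with Slc25a13. The libraries share time points and cohorts, so these values describe the data and carry no test. The 10 genes with the profile most like the mean of the 8 members, of 8007 compared by r over 24 libraries, were Masp2 (0.90), Slc6a12, Prodh, Slc38a4, Cyp27a1, Sfxn2, Hpd, Abat, Sardh and Ammecr1l (0.86). Prodh, Hpd and Sardh are enzymes of proline, tyrosine and sarcosine breakdown, and Slc38a4 is an amino acid transporter, and with only the 18 libraries of the LKO cohort 6 of the 10 remained among the first 10.

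Promoter sequences (250 bases before to 50 after the start site; RefSeq, GRCm38.p6) were at hand for 6 of 9 members: Otc, Ass1, Nags, Hal, Slc25a15 and Slc25a13. Motifs were searched on both strands: the TATA box TATAAA (in 13.6% of 32851 promoters), the CCAAT box (37.4%), the C/EBP pattern TTGCNNAA (10.8%), the HNF4 pattern CAAAGTCCA (0.475%), the cyclic AMP element TGACGTCA (1.79%), and the E2F patterns TTTCCCGC (1.07%) and TTTGGCGC (0.514%). Among the members' promoters only those of Hal and Slc25a13 held a match, the latter a CCAAT box 22 bases before the start. The Hal promoter (chr10:93488518-93488817, plus strand) is shown because it held 3 of the motifs, a C/EBP pattern, a CCAAT box and a TATA box read from the opposite strand, in this order in capitals, and because Hal was the member with the largest shared LKO difference after APAP:
Hal: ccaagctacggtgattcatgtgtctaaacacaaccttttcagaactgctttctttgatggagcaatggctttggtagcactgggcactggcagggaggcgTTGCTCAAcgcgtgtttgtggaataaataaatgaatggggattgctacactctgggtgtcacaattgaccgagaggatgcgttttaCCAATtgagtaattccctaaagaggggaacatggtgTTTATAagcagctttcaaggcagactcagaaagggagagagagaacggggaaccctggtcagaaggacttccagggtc
The capitals mark matching letters and not bound sites, and no match in a window says only that these letters are not in it. No factor binding was measured.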

How the data were processed

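Per the labels and the study's methods, the authors removed adapters and low-quality reads with Trimmomatic, used STAR for alignment (mm10) and deposited the gene counts it makes, which hold uniquely placed reads only. The unstranded count column was used. All 24 libraries had a file, and 0 columns were left unassigned. Members, lists and thresholds were chosen with earlier results of these data known. Genes with low counts were removed with filterByExpr, libraries were scaled by TMM, and tests were edgeR (4.0.16) quasi-likelihood F tests in R (4.3.3) with Benjamini-Hochberg adjustment. SE is the log2 fold change over the root of F. The limits for calls, 0.05 on the adjusted p and 1.5-fold, were those of the study. CPM used TMM-scaled library sizes over all libraries, log2 CPM a prior count of 2, and CPM per kb the merged exons of GENCODE vM21 (GRCm38). The fits were tested on simulated data. Alternatives were DESeq2 (1.42.0), other scalings and filters, 1 strand, left-out libraries, 1 genotype and a replicate block. A further member and some related genes are not reported here. Named genes were the members, E2f7 and E2f8, 8 fixed pathway genes (Glul, Oat, Car5a, Got1, Glud1, Uroc1, Hnf4a and Cebpa), the called pathway genes with the 2 largest increases and decreases in each comparison, and the 10 genes with the most similar profile. Atf4, Foxa1, Foxo1, Gcgr, Klf15, Ppargc1a and the called marker genes were named after their values were seen. Same-numbered LKO and control mice correlated at -0.31 to 0.18 in their deviations from the group means, and HKO mice at -0.04 to 0.12. Differently numbered LKO and control mice correlated at -0.40 to 0.38. Pairing by number was thus not seen, but so few mice cannot exclude it. Counts of 0 allow a level up to that of 3 counts, for counting error only. The study's methods give 4 mice a genotype at 0 h, and the HKO cohort here has 3.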

Additional observations from a re-analysis of the deposited data

Results flagged for a closer look

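Cps1 in the fourth LKO mouse at 0 h was at 3245 CPM, below the 4459 to 4585 CPM of the other 3. Its gap to the nearest mouse was 0.91 of the whole range of the group, above Dixon's critical value for 4 samples. It was 1 of 17 groups of 4 mice examined over the members, and chance marks about 1 group in 20. Without this mouse no member was called between LKO and control at 0 h. The cause was not tested.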

How the results depend on the processing

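No member was called under any alternative for LKO against control at 0 h, the LKO against the HKO difference, the early against the late LKO difference, and 72 and 96 h. For HKO against control, DESeq2 called 1 member (Asl), the replicate block 1 (Asl, log2 fold change -0.67, edgeR adjusted p = 0.0258, 263 genes against 119) and leaving out single mice 0 to 1. The block called 0 members in the other comparisons of mice, and whether the numbers pair mice is not known. Between the pools, DESeq2 called 2 members (606 genes against 74), no filter on low counts 1 (337 genes), scaling to hepatocyte markers 3 (818 genes) and 1 fit of all 18 libraries 2 (318 genes). For the LKO difference after APAP against that at 0 h, DESeq2 called 1. Over the alternatives 0 to 39 genes were called there, against 0 in the main fit. Control libraries alone gave 1 member and 3253 genes at 12 h (2 members with both genotypes), 3 and 1748 at 24 h (5 members) and 2 and 1881 at 48 h (0 members), and LKO libraries alone 2 and 1062 at 24 h, with Otc at 48 h reversed to 0.0349 on the log2 scale. The cause was not tested. With the 12 h pools as reference in place of 0 h, chosen after seeing the data, 24 h gave 3 members.

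Counts over all genes ranged over the alternatives from 31 to 331 (HKO), 0 to 818 (pools), 1414 to 4816 (12 h), 1062 to 3964 (24 h), 280 to 2697 (48 h), 375 to 2924 (72 h), 10 to 338 (96 h), 0 to 39 (after APAP against 0 h), 0 to 188 (early against late), 0 to 21 (LKO against HKO) and 0 to 3 (LKO at 0 h). Scaling to hepatocyte markers shifted the median of all genes to 0.31 between the pools and 0.28 between LKO and control at 0 h on the log2 scale, where all 8 members then were on the higher side. Of 1232 alternative values of the 72 member differences that were never called, 79 had the opposite sign. With 1 pool a time and genotype, differences between genotypes at 1 time have no replicate check.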
